A study of Mus musculus with 2 samples.

Results

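Group 2 innate lymphoid cells (ILC2) with little or no Calca mRNA were examined in mouse bone marrow, in a single-cell RNA-seq comparison of animals that lack a locus called LCR1 with their wild-type counterparts, made to learn what its deletion does to ILC2 development. Members were chosen by unique molecular identifier (UMI) counts. Each barcode had at least 1 UMI of Gata3, at least 2 UMIs in all of Il1rl1, Hs3st1 and Il2ra, at most 1 UMI of Calca, and at most 1 UMI in all of Cd3d, Cd3e and Cd3g. The gate was set among barcodes with at least 1000 genes detected and at most 10% of UMIs from mitochondrial genes. It held 994 of 7633 barcodes past that filter, 485 of 4343 in the knockout and 509 of 3290 in the wild type. The counts that set the gate, and every other gene of the same cells, are therefore given as descriptions and not as tests.

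The knockout group (KO) was LCR1-/- and the wild-type group (WT) was LCR1+/+, both on the C57BL/6 background, aged 8 to 12 weeks. Marrow of several animals, males and females in equal number, was pooled per genotype, and viable CD45+ lineage-negative CD127+ cells were sorted by flow cytometry and run on a 10x Genomics 3' kit. The labels do not give the number of animals in each pool. Each genotype had 1 library, so a difference between KO and WT compares these 2 libraries and has no replicate check, and no p-value is given. The labels give no position for LCR1 and the matrices hold no row for it, so the deletion itself could not be checked in the counts.

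The KO matrix listed 8476 barcodes and the WT matrix 20293, and 75 barcode sequences occurred in both, of which 0 were past the filter. Calca-low cells held 3004050 UMIs in KO and 3982949 UMIs in WT, with per-cell medians of 5009 UMIs, 1776 genes and 4.60% mitochondrial UMIs in KO and of 5973 UMIs, 2033 genes and 4.23% mitochondrial UMIs in WT. Levels below are sums of UMIs over the cells of a library per 1000000 UMIs (CPM), which counts 3' ends and is not divided by gene length. Intervals are exact 95% intervals of counting error only, Poisson for levels, binomial for ratios and Clopper-Pearson for shares of cells. A gene counted as measured with at least 50 UMIs over both groups and at least 50 CPM in the higher one. It was called higher or lower when log2(CPM + 5) differed by at least 1.5-fold and the interval of the ratio left out 1. Against all other barcodes the limit was 2-fold.

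ILC2 are lymphocytes without antigen receptors that sit mostly in barrier tissues, and bone marrow holds an immature form of them. They respond to IL-33 through ST2 (Il1rl1), to IL-25 and to IL-7, and on activation release IL-5 and IL-13. Their identity rests on the transcription factors GATA3 and RORα, and their precursors depend on ID2, an inhibitor that binds E proteins and keeps them from DNA. Calca encodes calcitonin and, by alternative splicing, the neuropeptide CGRP, which ILC2 can make and can also sense.

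The promoter windows of the gene that bounded the gate and of the gene with the widest KO to WT difference among the ILC2 regulators are shown here for reference, as RefSeq gives them on GRCm38.p6. Capitals mark the cyclic AMP response element half-site TGACG, searched on both strands because Crem, a factor known to bind such elements, went with Calca in these cells. The Calca window, chr7:114636308-114636607 on the minus strand, holds 1 half-site, which starts at base 186 counted from the 5′ end.
Calca: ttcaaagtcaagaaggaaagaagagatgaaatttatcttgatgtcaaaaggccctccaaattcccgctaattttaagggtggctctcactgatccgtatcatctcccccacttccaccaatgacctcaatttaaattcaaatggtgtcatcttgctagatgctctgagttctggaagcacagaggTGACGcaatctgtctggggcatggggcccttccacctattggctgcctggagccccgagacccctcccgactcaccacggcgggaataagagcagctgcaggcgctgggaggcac
The Id2 window, chr12:25096043-25096342 on the minus strand, holds none.
Id2: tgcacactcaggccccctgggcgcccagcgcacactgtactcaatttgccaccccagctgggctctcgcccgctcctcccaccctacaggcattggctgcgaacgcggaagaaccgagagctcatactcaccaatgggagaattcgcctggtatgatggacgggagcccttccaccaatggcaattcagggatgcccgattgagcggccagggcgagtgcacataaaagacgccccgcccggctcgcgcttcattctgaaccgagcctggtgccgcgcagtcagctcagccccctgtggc
Of 32851 promoter windows of the same length, 20.8% held TGACG on either strand. The window of Ramp3, which also went with Calca, was searched too and held no TGACG. Also searched were the E-box motif CANNTG, found in each of these windows, and the GATA site AGATAA, found in that of Calca. Over all windows 72.3% held the E-box motif and 11.2% the GATA site. A match is a run of letters and not a shown binding site.

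Outside the genes of the gate, Calca-low cells carried ILC2 genes. Rora, which the gate did not use, stood at 810.2 CPM in KO and 433 CPM in WT, against 362 CPM in KO and 297 CPM in WT in all other barcodes past the filter, a set that includes the gated cells with 2 or more Calca UMIs. Il7r, the gene of the sorted marker CD127, stood at 1562 CPM in KO and 1355 CPM in WT, against 711 CPM in KO and 665 CPM in WT in the others. Il17rb, a chain of the IL-25 receptor, stood at 225 CPM in KO and 187 CPM in WT, against 47.1 CPM in KO and 62.9 CPM in WT. In both libraries each of these levels was above that of the other barcodes, although Rora passed the 2-fold limit in KO alone.

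In both libraries 96 of 3239 measured genes were at least 2-fold higher in Calca-low cells than in the other barcodes (2.96%) and 126 were lower (3.89%). Beside the gate gene Il2ra, the leading genes were Rnf128, an E3 ubiquitin ligase, Ccr9, a chemokine receptor of gut-homing lymphocytes, Inpp4b, a phosphoinositide phosphatase, and Cysltr1, the receptor of cysteinyl leukotrienes. Ccr9 stood at 353 CPM in KO and 399 CPM in WT, against 52.6 CPM in KO and 65.2 CPM in WT in the others. Cysltr1 stood at 134 CPM in KO and 118 CPM in WT, against 10.3 CPM in KO and 18.4 CPM in WT. Ly6a, which encodes the surface antigen Sca-1, stood at 647 CPM in KO and 592 CPM in WT, against 126 CPM in KO and 114 CPM in WT. Ptpn13, Lztfl1, Mdfic, Ccdc184 and Slc7a8 completed the leading 12 with Il1rl1. Of 16 genes of ILC2 enzymes and surface proteins, 9 of 10 measured in KO and 9 of 11 measured in WT were higher, where 4.41% of all genes in KO and 3.36% in WT were, with a median log2 ratio of 2.23 in KO and 1.81 in WT, beside -0.14 in KO and -0.13 in WT over all genes measured. In each library 1 gene of the list was lower. The list includes Hs3st1 and Il1rl1, which set the gate. The other ILC2 lists, which also include gate genes, were less uniform. Of the ILC2 transcription factors 6 of 15 measured in KO and 5 of 15 in WT were higher, and 1 was lower in each. Of the ILC2 receptors 7 of 13 measured in KO and 6 of 12 in WT were higher, and 0 were lower.

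The genes lowest in Calca-low cells relative to the others were those of other marrow lineages. Besides Calca they were Ly6d, Blnk, Arpp21 and Myl10, known from early B-lineage cells, Dntt and Flt3, known from lymphoid progenitors, and Irf8, Siglech, Cox6a2, Ly6c2 and Bex6. Dntt, the terminal transferase that adds bases at V(D)J joints, stood at 262 CPM in KO and 237 CPM in WT, against 1109 CPM in KO and 1086 CPM in WT in the others. Irf8, a regulator of dendritic cells, stood at 79.6 CPM in KO and 174 CPM in WT, against 448 CPM in KO and 709.7 CPM in WT. Of the lymphoid progenitor list 6 of 7 measured were lower in each library, where 6.01% of all genes in KO and 4.87% in WT were. These genes were lower and not absent in Calca-low cells. For composition scaling by TMM, the log2 ratio of the Calca-low factor to that of the others was -0.13 in KO and -0.11 in WT. Dividing by these factors would raise the ratios to the others by that amount.

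**Figure D1:**
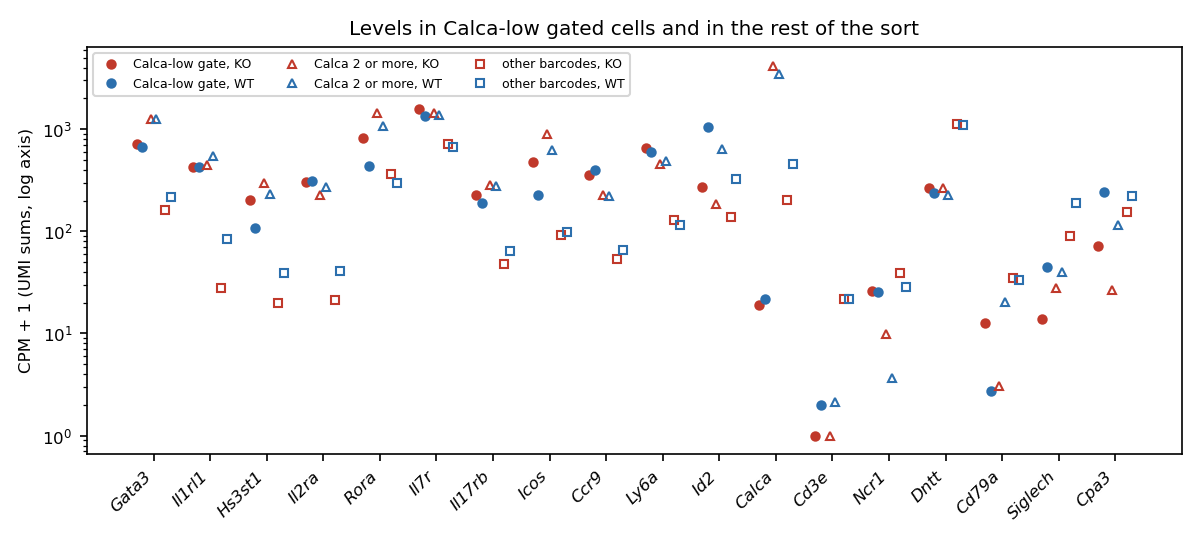
Levels of 18 genes as CPM + 1 on a log axis in Calca-low gated cells, in gated cells with 2 or more Calca UMIs and in all other barcodes past the filter (the last set includes the second), KO in red and WT in blue, 1 library each. Gata3, Il1rl1, Hs3st1 and Il2ra, which set the gate, and Rora, Il17rb, Icos, Ccr9 and Ly6a lie above the other barcodes, and Dntt, Cd79a and Siglech below them.

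Markers of other cell types were present. Summed over the T-cell list the level was 979 CPM in KO and 692 CPM in WT, against 919.8 CPM in KO and 593 CPM in WT in the other barcodes. Of the Calca-low sum Trbc1, Trbc2 and Tcrg-C1, receptor loci that ILC also transcribe without a full receptor, made up most. Cd3e was at 0 in KO (a limit of 3 UMIs corresponds to 0.999 CPM) and at 1.00 CPM in WT, which the gate on CD3 fixed in part. The NK and ILC1 list summed to 605 CPM in KO and 553 CPM in WT, against 1504 CPM in KO and 1072 CPM in WT in the other barcodes. At least 10 of its UMIs were held by 33 KO and 35 WT Calca-low cells. Its member Ccl5 had a UMI in 30.1% of KO and 41.1% of WT Calca-low cells. Ncr1 stood at 25.3 CPM in KO and 24.4 CPM in WT, Eomes at 5.33 CPM in KO and 0.251 CPM in WT and Tbx21 at 4.99 CPM in KO and 6.53 CPM in WT. Of the ILC3 list, Il22 and Il17a were at 0 in both libraries, and Ltb, which ILC2 also make, stood at 794 CPM in KO and 689.9 CPM in WT. With Ltb as its main part, that list summed to 926 CPM in KO and 746 CPM in WT, against 377 CPM in KO and 239 CPM in WT in the other barcodes. Other genes of the list were higher in KO at low levels. Ccr6, a chemokine receptor of ILC3, stood at 28.0 CPM in KO and 5.02 CPM in WT, in 32 KO and 5 WT cells. Il23r, a chain of the IL-23 receptor, had 27 UMIs in KO and 3 in WT, in 22 KO and 2 WT cells, and Cxcr5 stood at 9.65 CPM in KO and 2.01 CPM in WT, in 17 KO and 5 WT cells. Cd4, of the T-cell list and also carried by some ILC3, stood at 22.6 CPM in KO and 3.01 CPM in WT, in 19 KO and 6 WT cells. These 4 genes were under the 50 CPM needed for a call. With no minimum level 4 of 8 ILC3 genes were higher in KO and 0 lower, where 314 of 15939 genes in all were higher and 442 lower. In all, 41 KO and 11 WT members held a UMI of Ccr6, Il23r, Cxcr5 or Cd4, and a recount without them, chosen after these values were seen, is given below. The basophil and mast cell list summed to 1153 CPM in KO, with 8 of its 10 genes detected, and 4215 CPM in WT, with all 10 detected. In the other barcodes the sums were 2529.8 CPM in KO and 4408 CPM in WT, so the WT Calca-low sum was near that of the other WT barcodes, and 7 KO and 29 WT Calca-low cells held at least 10 of its UMIs. The neutrophil and monocyte list summed to 103 CPM in KO and 491 CPM in WT, against 250.2 CPM in KO and 562 CPM in WT in the other barcodes. The summed ILC2 markers include genes of the gate, so their high level was fixed in part and does not test the label of ILC2. Outside the gate genes, Rora, Il7r and Il17rb stood above the other barcodes, as given above. With a limit of 10 UMIs of 1 of 8 lists, 64 KO and 104 WT barcodes also carried genes of other lineages. With a limit of 3 UMIs over the marker lists of other types, 1 KO and 0 WT barcodes fell below it. The part of such barcodes in the differences below was not tested beyond the recounts that left some of them out.

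The label of resting cells was checked on genes of the cell cycle and on effector genes. With every cell thinned to 1500 UMIs, at least 2 UMIs of 19 genes of the G2 and M phases were found in 3.92% (2.37 to 6.05) of KO and 13.6% (10.7 to 16.8) of WT Calca-low cells. Among the other barcodes the shares were 16.3% in KO and 39.5% in WT, and among gated cells with 2 or more Calca UMIs they were 1.5% in KO and 8.65% in WT. Calca-low cells were thus below the rest of the sort in cycling genes in both libraries, but not below the Calca-expressing cells of the same gate. Without thinning, the Calca-low shares were 13.8% in KO and 28.3% in WT. No cell was called cycling from these counts.

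Of 14 genes of type 2 effectors, 0 reached 50 CPM in Calca-low cells of either library. The list summed to 95.9 CPM in KO and 121.5 CPM in WT, above the 32.8 CPM in KO and 52.6 CPM in WT of the other barcodes. In Calca-expressing cells of the same gate the sums were 127 CPM in KO and 150 CPM in WT. Il5 stood at 0.333 CPM in KO and 1.26 CPM in WT, Il13 at 4.99 CPM in KO and 5.52 CPM in WT and Areg, which encodes amphiregulin, at 11.7 CPM in KO and 4.52 CPM in WT. Il9, Il10, Il3 and Penk had 0 UMIs in both libraries, where 3 UMIs would be 0.999 CPM in KO and 0.753 CPM in WT. Tnfsf11, which encodes RANKL, was the highest in KO with 29.6 CPM, and Csf1 the highest in WT with 41.2 CPM. Immediate early genes, which stimulation induces, went against a plain label of resting cells. Their list summed to 17662 CPM in KO and 12309.5 CPM in WT Calca-low cells, against 9028 CPM in KO and 5911 CPM in WT in the other barcodes. Within KO 7 of 20 measured were at least 2-fold higher in Calca-low cells and 2 lower, and within WT 7 of 18 were higher and 1 lower. Over all genes measured, 4.41% were higher and 6.01% lower in KO, and 3.36% higher and 4.87% lower in WT. Against the Calca-expressing cells of the same gate the median log2 ratio of the list was -0.15 in KO and -0.28 in WT. Over all genes measured it was 0.04 in KO and -0.01 in WT. Fos stood at 2434 CPM in KO and 1421 CPM in WT and Fosb at 2921 CPM in KO and 2544 CPM in WT. Of the NF-κB list 4 of 9 measured genes in KO and 3 of 8 in WT were higher in Calca-low cells than in the other barcodes, beside the same shares over all genes.

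**Figure D2:**
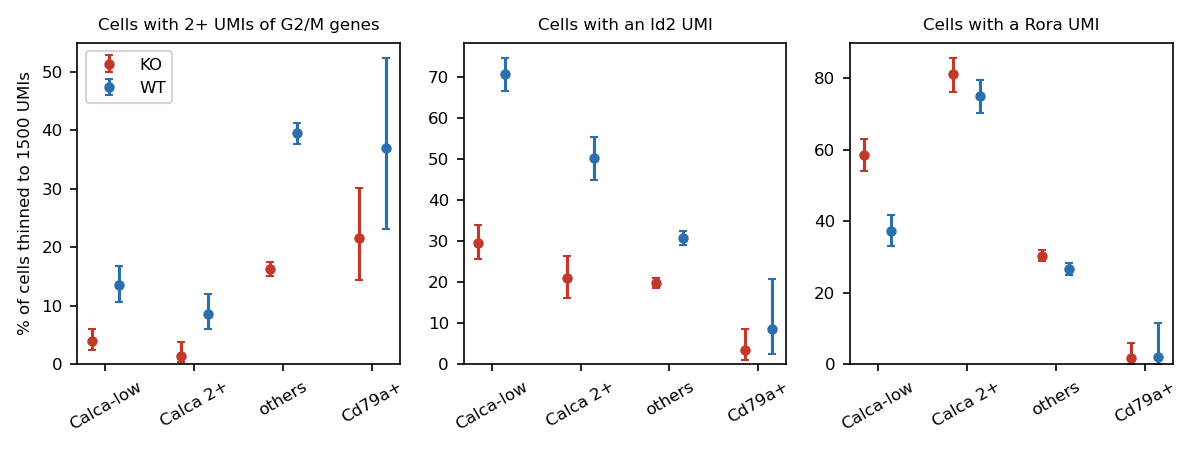
Share of cells with at least 2 UMIs of G2 and M phase genes, with an Id2 UMI and with a Rora UMI after thinning to 1500 UMIs, for Calca-low gated cells, gated cells with 2 or more Calca UMIs, all other barcodes, and Cd79a-positive Gata3-negative cells as background, KO in red and WT in blue, with exact 95% intervals of counting error. Calca-low cells lie below the other barcodes in cycling genes, and KO lies below WT in Id2 in each of the first 3 sets.

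Within the gate Calca itself divided the cells. It stood at 18 CPM in KO and 20.8 CPM in WT in the Calca-low cells, by the rule, and at 4191 CPM in KO and 3499 CPM in WT in the 267 KO and 370 WT cells of the same gate with 2 or more UMIs. Just inside the limit, 54 KO and 83 WT cells held 1 Calca UMI, and just outside it 15 KO and 31 WT cells held 2. The remaining 431 KO and 426 WT members held 0. Rora stood at 758, 1220.2, 1433, 1373, 1444 and 1511 CPM in KO cells with 0, 1, 2, 3 to 9, 10 to 29 and 30 or more Calca UMIs. In WT cells the same 6 levels were 412, 542, 882, 829, 1151 and 1179 CPM. It was lowest at 0 and highest at 30 or more in both libraries, and lower at 3 to 9 than at 2 in both. Gata3 stood at 841 CPM in KO and 706 CPM in WT just inside the limit, and at 795 CPM in KO and 1239.8 CPM in WT just outside it. Ramp3 stood at 23.7 CPM in KO and 29.2 CPM in WT just inside, and at 78.4 CPM in KO and 85.5 CPM in WT just outside. Dgat1 stood at 56.3 CPM in KO and 35.4 CPM in WT just inside, and at 157 CPM in KO and 74.8 CPM in WT just outside. In KO the levels just outside rest on 15 cells.

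Relative to the Calca-expressing cells, in both libraries, 40 of 2909 measured genes were at least 1.5-fold higher in Calca-low cells (1.38%) and 159 were lower (5.47%). The gate used the same cells, so these counts describe what accompanies Calca. Ramp3, which encodes a partner protein of calcitonin-family receptors, stood at 15.3 CPM in KO and 11.3 CPM in WT in Calca-low cells, against 145 CPM in KO and 158 CPM in WT. Crem, a cyclic AMP responsive factor, stood at 35.6 CPM in KO and 22.3 CPM in WT, against 222 CPM in KO and 191 CPM in WT. Ramp3 was 9.44-fold lower in KO and 14.0-fold lower in WT. Crem was 6.22-fold lower in KO and 8.56-fold lower in WT, and reached 328 CPM in KO and 334 CPM in WT in cells with 30 or more Calca UMIs. Dusp5, Rgs1 and Rgs2, the 3 immediate early genes called in both libraries, were lower in Calca-low cells, as was Tnfaip3.

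Further genes low in Calca-low cells covered enzymes, receptors and transcription factors. Dgat1, the acyltransferase of triglyceride synthesis, stood at 42.6 CPM in KO and 32.1 CPM in WT, against 215 CPM in KO and 159 CPM in WT in Calca-expressing cells. Jdp2, a bZIP factor, stood at 34.6 CPM in KO and 24.6 CPM in WT, against 159 CPM in KO and 132 CPM in WT. Il10ra, a chain of the IL-10 receptor, stood at 16.6 CPM in KO and 13.8 CPM in WT, against 77.8 CPM in KO and 74.6 CPM in WT, and Ctla2a at 180.1 CPM in KO and 119.5 CPM in WT, against 632 CPM in KO and 491 CPM in WT. AA467197, Igsf5, C1qtnf12, Isy1 and Ppp2r3a completed the 12 genes with the widest difference, Calca included. Of 14 measured ILC2 factors 5 were lower in KO, where 7.35% of all genes were, and 6 in WT, where 7% were. Higher in Calca-low cells were 3 of the 14 in KO, where 4.76% of all genes were, and 2 in WT, where 2.56% were. Gata3, Rora, Lmo4, Zbtb16 and Nfkb1 were lower in both libraries, and Ikzf2, which encodes Helios, was higher. Nfkb1 stood at 445 CPM in KO and 450.2 CPM in WT, against 1110.1 CPM in KO and 1048 CPM in WT. Of the receptors, Icos, Tnfrsf18 (GITR) and Il4ra were lower in both, Icos at 472 CPM in KO and 227 CPM in WT, against 899 CPM in KO and 629 CPM in WT. Ldha, the lactate dehydrogenase subunit, was the one glycolysis gene called lower in both libraries, at 382 CPM in KO and 417 CPM in WT, against 936 CPM in KO and 1132 CPM in WT.

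**Figure D3:**
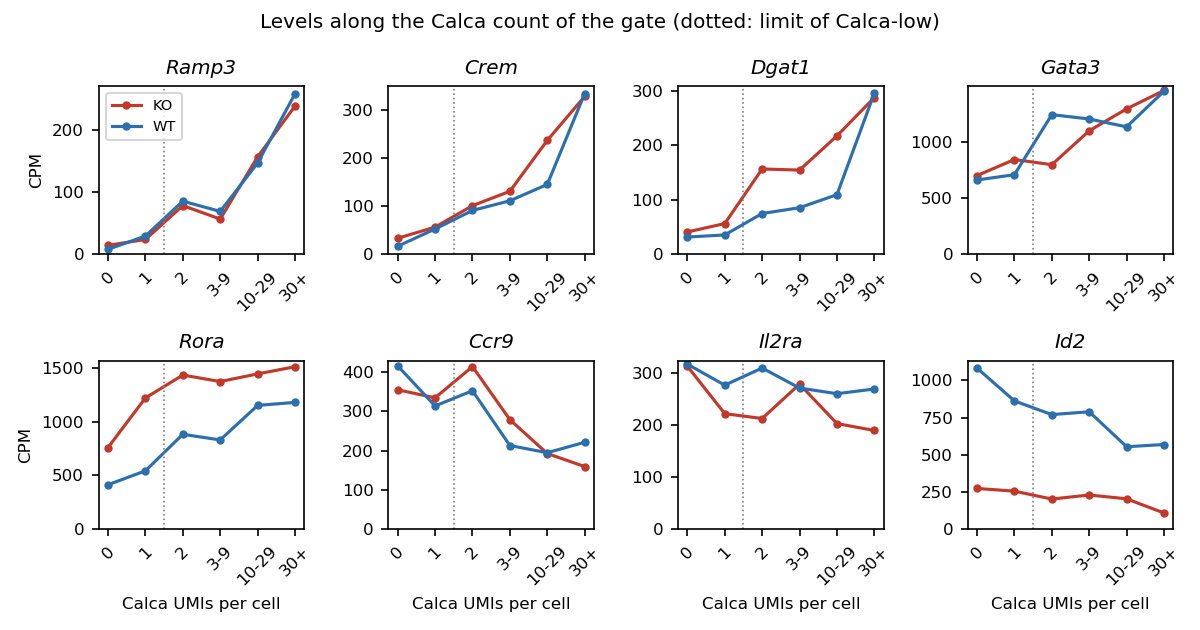
Levels in CPM of 8 genes in gated cells grouped by their Calca count (0, 1, 2, 3 to 9, 10 to 29 and 30 or more UMIs), KO in red and WT in blue, with a dotted line at the limit of the Calca-low gate. Ramp3, Crem, Dgat1, Gata3 and Rora are highest in the top bin in both libraries, and Id2 is lower in KO than in WT in every bin.

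Genes higher in Calca-low cells formed a shorter list. Serpina3g, a serine protease inhibitor, stood at 167 CPM in KO and 114 CPM in WT, against 58.5 CPM in KO and 38.6 CPM in WT in Calca-expressing cells. Gpr183, the oxysterol receptor EBI2, stood at 123 CPM in KO and 134 CPM in WT, against 46.8 CPM in KO and 49.5 CPM in WT. Ccr9 was 1.58-fold higher in KO and 1.83-fold higher in WT, and Bcl2, a survival factor downstream of IL-7, 1.88-fold higher in KO and 1.69-fold higher in WT. Ms4a6b, Kbtbd11, Filip1l and Clec2d were also among the 12 leading genes. Ccl5, Klrk1, Cd74, H2-Eb1, Mcpt8 and Cpa3 made up the rest, and these are genes of other lineages as well. Once cells with 10 or more UMIs of any 1 of 8 marker lists of other cell types were left out (64 KO and 104 WT), Mcpt8 and Cpa3 were no longer higher in both libraries, with smaller log2 ratios of -0.44 and -0.34. Ccl5 and Klrk1 lost their call too. Mcpt8, Cpa3, Ccl5 and Klrk1 each belong to a list that chose the cells left out, so that recount is not independent of them. Cd74 and H2-Eb1 lost their call without the cells with a UMI of Ccr6, Il23r, Cxcr5 or Cd4, with smaller log2 ratios of 0.46 and 0.22.

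Calca-low cells also varied by the receptor that brought them into the gate. All 3 of Il1rl1, Il2ra and Hs3st1 were detected in 157 KO cells (32.4%) and 172 WT cells (33.8%). Cells with Il2ra alone numbered 61 in KO (12.6%) and 23 in WT (4.52%). In these the NK-cell receptor gene Ncr1 stood at 109 CPM in KO and 121 CPM in WT, against 8.19 CPM in KO and 5.53 CPM in WT in cells with all 3, and the chemokine gene Ccl5 stood at 530.1 CPM in KO and 1259 CPM in WT, against 159.8 CPM in KO and 160.4 CPM in WT in cells with all 3. Gata3 in cells with Il2ra alone was 337 CPM in KO and 621 CPM in WT. Ncr1 was not particular to them in WT. In cells with Il1rl1 alone, 34 in KO and 43 in WT, it stood at 0 in KO and 133 CPM in WT. Gata3 in those cells was 704 CPM in KO and 369 CPM in WT. By the receptor sum, the 92 KO and 74 WT members just inside the limit, with 2 UMIs, held Il7r at 1553 CPM in KO and 964 CPM in WT. The 177 KO and 152 WT cells just outside it, with 1 UMI, held 1049 CPM in KO and 894 CPM in WT.

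Depth varied among the members. Cells above 10000 UMIs numbered 43 in KO and 81 in WT and held 25.1% of the Calca-low UMIs in KO and 39.8% in WT.

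In Calca-low cells 83 of 3087 measured genes were at least 1.5-fold higher in KO than in WT (2.69%) and 72 were lower (2.33%), and at 2-fold the counts were 25 (0.81%) and 28 (0.907%). The median log2 ratio over all measured genes was -0.03. Without the 64 KO and 104 WT cells with 10 or more UMIs of 1 of 8 lists of other lineages, 97 genes were higher and 38 lower. Of the 83 higher genes 72 were called again, and of the 72 lower genes 21. Members with fewer such UMIs stayed in this recount, called that without cells with UMIs of other lineages. The ILC3 and T-cell lists were not among the 8. At least 10 UMIs of the ILC3 list were held by 84 KO and 96 WT members, and of the T-cell list by 77 KO and 66 WT members. Without the cells above 10000 UMIs 101 were higher and 51 lower, with 69 of the 83 and 26 of the 72 called again. Without the cells with a UMI of Ccr6, Il23r, Cxcr5 or Cd4 the counts were 92 higher and 68 lower, with 71 of the 83 and 56 of the 72 called again. In the recounts without deep cells and without other lineages a smaller part of the lower genes than of the higher ones was called again. Several of the lower genes, given below, belong to the lists that chose the cells left out. The recount without other lineages is therefore not independent of them.

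Id2, whose product inhibits E proteins, was lower in the KO library. It stood at 271 CPM in KO and 1046 CPM in WT, a level 3.87-fold, 95% interval 3.59 to 4.17, lower in KO. After thinning to 1500 UMIs, 29.7% (25.7 to 34.0) of KO and 70.9% (66.8 to 74.8) of WT Calca-low cells held an Id2 UMI, and unthinned the shares were 59.2% in KO and 91.7% in WT. In Cd79a-positive Gata3-negative cells, as a measure of background, the thinned shares were 3.45% of 116 KO cells and 8.70% of 46 WT cells, whose unthinned medians were 12496 UMIs in KO and 14695 UMIs in WT. The KO Calca-low share was therefore above that background.

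The Id2 difference was found at each depth and over the Calca range. In cells under 4000 UMIs Id2 stood at 335 CPM in KO and 984 CPM in WT, in cells of at least 4000 and under 8000 UMIs at 297 CPM in KO and 1257 CPM in WT, and in deeper cells at 202 CPM in KO and 856 CPM in WT. In Calca-expressing gated cells it stood at 183 CPM in KO and 632 CPM in WT, and in the other barcodes at 136 CPM in KO and 327 CPM in WT. The log2 ratios of KO to WT were -1.93 in Calca-low cells, -1.76 in Calca-expressing cells and -1.24 in the others. The difference between these ratios was not tested. Id1, Id3 and Id4 stayed under 10 CPM in Calca-low cells of both libraries, and of the E proteins Tcf12 was not called at 103 CPM in KO and 94.9 CPM in WT.

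**Figure D4:**
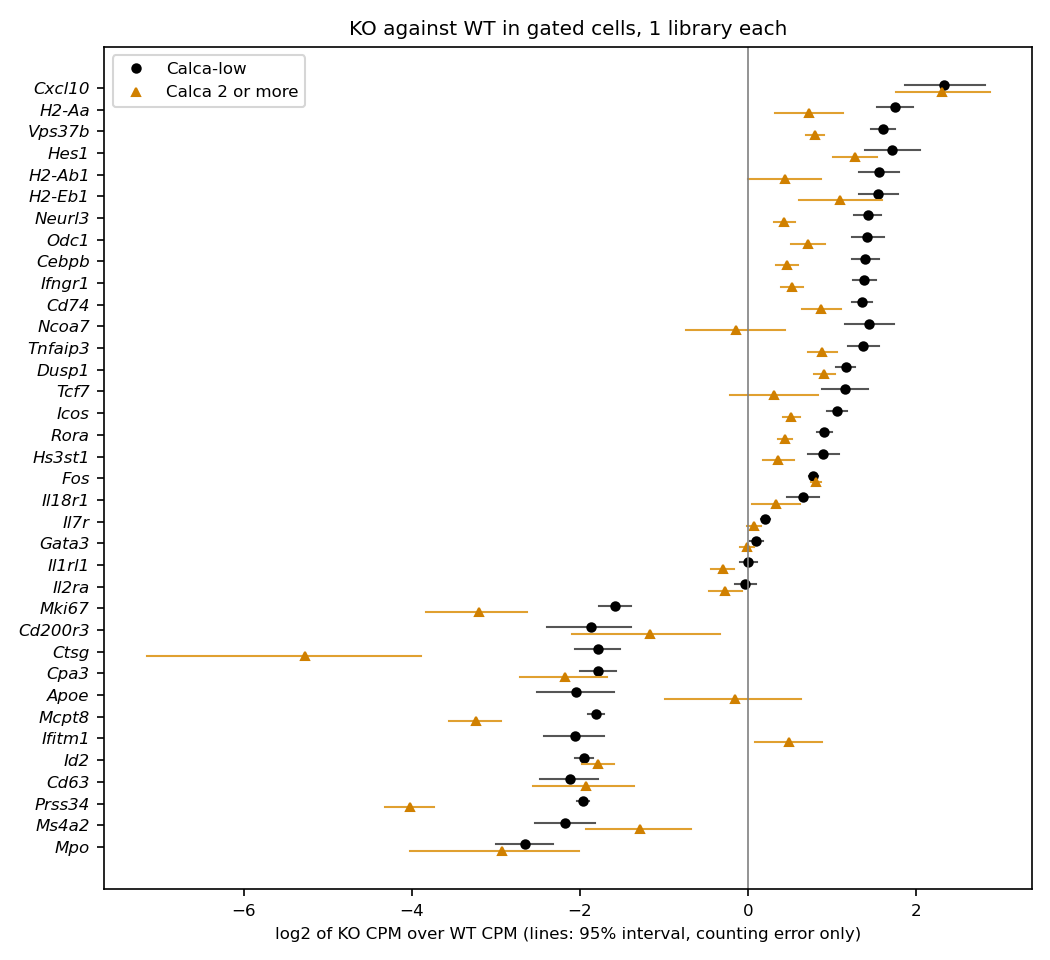
Log2 of the ratio of KO to WT CPM for named genes in Calca-low gated cells (black circles) and in gated cells with 2 or more Calca UMIs (orange triangles), with exact 95% intervals of counting error as lines, 1 library per genotype. Id2 lies well below 0 in both sets, Gata3, Il1rl1, Il2ra and Il7r lie near 0 in Calca-low cells, and Elane, with 0 UMIs in KO, is not drawn.

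Among measured ILC2 transcription factors and receptors Id2 was the 1 gene called lower in KO. With no minimum level 2 of 18 factors were lower, where 442 of 15939 genes in all were. Gfi1, a factor of the list, stood at 22.8 CPM in KO and 44.4 CPM in WT in cells of at least 4000 and under 8000 UMIs. Its level was lower in KO at the other depths too, on few UMIs. Gata3 stood at 714 CPM in KO and 667 CPM in WT, Il1rl1 at 423 CPM in KO and 422 CPM in WT and Il2ra at 303 CPM in KO and 311 CPM in WT, all 3 within the gate and none called. Of 15 measured ILC2 transcription factors 2 were higher, 1 was lower, and the median log2 ratio was 0.17. Rora stood at 810.2 CPM in KO and 433 CPM in WT, 1.87-fold, 95% interval 1.76 to 1.99, higher in KO. Tcf7, a factor of early ILC precursors, stood at 97.5 CPM in KO and 43.9 CPM in WT, 2.22-fold, 95% interval 1.83 to 2.69, higher in KO. Of 11 measured ILC2 enzymes and surface genes 1 was higher, Hs3st1, and 3 were lower, Ltb4r1, Alox5 and Alox5ap, with a median log2 ratio of -0.18.

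Of 12 measured receptors 3 were higher and 0 lower, with a median log2 ratio of 0.27. Icos, the costimulatory receptor that ILC2 use with its ligand, stood at 472 CPM in KO and 227 CPM in WT, 2.08-fold, 95% interval 1.91 to 2.26, higher in KO. Il2rb stood at 87.2 CPM in KO and 43.7 CPM in WT and lost its call without the cells with UMIs of other lineages, a recount whose NK list includes it. Il18r1, a chain of the IL-18 receptor, stood at 168 CPM in KO and 107 CPM in WT. It did not run the same way at each depth. Its level was 71.9 CPM in KO and 124 CPM in WT in cells under 4000 UMIs, and 146 CPM in KO and 28.0 CPM in WT in cells of at least 4000 and under 8000 UMIs. Hs3st1, a heparan sulfate sulfotransferase and a gate gene, stood at 199 CPM in KO and 107 CPM in WT. For the signalling genes of the IL-7 receptor, 0 of 8 measured were called in either direction.

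Several of the genes higher in KO Calca-low cells were also more abundant in Calca-expressing cells of either library than in Calca-low ones. Rora stood at 1440.4 CPM in KO and 1060.1 CPM in WT in Calca-expressing cells, Icos at 899 CPM in KO and 629 CPM in WT and Hs3st1 at 293 CPM in KO and 228 CPM in WT, none of them called between KO and WT there. Vps37b, a subunit of an endosomal sorting complex, stood at 409.8 CPM in KO and 135 CPM in WT in Calca-low cells, 3.04-fold, 95% interval 2.74 to 3.37, higher in KO, and at 926 CPM in KO and 532 CPM in WT in Calca-expressing cells. Neurl3, a ubiquitin ligase, stood at 328 CPM in KO and 122 CPM in WT in Calca-low and at 662 CPM in KO and 491 CPM in WT in Calca-expressing cells. Cebpb, a bZIP factor, stood at 319 CPM in KO and 122 CPM in WT in Calca-low and at 575 CPM in KO and 416 CPM in WT in Calca-expressing cells. Hes1, a Notch target, stood at 88.9 CPM in KO and 27.1 CPM in WT in Calca-low and at 198 CPM in KO and 82.1 CPM in WT in Calca-expressing cells. In Calca-expressing cells Vps37b and Hes1 were called higher in KO, and Neurl3 and Cebpb were not. Hes1 was also higher in KO in the other barcodes, at 123 CPM in KO and 37.8 CPM in WT, where Vps37b, Neurl3 and Cebpb were not called. Whether the ratios differ between these sets of cells was not tested.

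Immediate early genes were higher in KO as a group. Of 27 listed, 19 were measured, 12 were higher and 0 lower, with a median log2 ratio of 0.75. Dusp1, a phosphatase of MAP kinases, stood at 575 CPM in KO and 258 CPM in WT, Klf4 at 306 CPM in KO and 139 CPM in WT, Rgs2, a regulator of G-protein signalling, at 212 CPM in KO and 85.1 CPM in WT, and Fos at 2434 CPM in KO and 1421 CPM in WT. Fosb and Jun, the most abundant of the list, were not called, with Jun at 2741 CPM in KO and 2321 CPM in WT. Without cells above 10000 UMIs 8 of 18 measured were higher, and without cells with UMIs of other lineages 11 of 18. The list was also higher in KO outside the Calca-low cells, with 12 of 19 genes in Calca-expressing cells, where 2.38% of all genes were higher, and 13 of 20 in the other barcodes, where 1.69% were. The direction was thus seen in all 3 sets of the KO library, and the part of the library in it was not tested.

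Few genes of the other induced lists were called. Cxcl10, a chemokine that interferon induces, stood at 61.9 CPM in KO and 12.3 CPM in WT, 5.03-fold, 95% interval 3.66 to 7.04, higher in KO, while Isg15, Ifit1, Ifit3 and Irf7 stayed under 50 CPM and Irf1 was not called. Of 18 interferon-response genes 7 were measured and Cxcl10 was the 1 called. Without the cells with a UMI of Ccr6, Il23r, Cxcr5 or Cd4 it stood at 47.2 CPM in KO and 12.4 CPM in WT, under the minimum level. Tnfaip3, the NF-κB inhibitor A20, stood at 250.0 CPM in KO and 96.7 CPM in WT and Traf1 at 109.5 CPM in KO and 60.0 CPM in WT, the 2 called of 8 measured NF-κB genes. Traf1 lost its call without the cells with UMIs of other lineages, at 112 CPM in KO and 77.0 CPM in WT. Among the 12 highest genes, Ifngr1, a chain of the interferon-γ receptor, stood at 445 CPM in KO and 171 CPM in WT, and Odc1, the first enzyme of polyamine synthesis, at 231 CPM in KO and 86.4 CPM in WT. Of 8 heat-shock genes measured, 0 were called.

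Genes of class II antigen presentation were higher in KO over all members, 4 of 5 measured with a median log2 ratio of 1.47, but not once 41 KO and 11 WT cells with a UMI of Ccr6, Il23r, Cxcr5 or Cd4 were left out. In that recount 0 of 2 measured were called, with a median of 0.04, and H2-Aa stood at 49.8 CPM in KO and 46.8 CPM in WT and Cd74 at 204 CPM in KO and 182 CPM in WT. Over all members H2-Aa stood at 217 CPM in KO and 64.5 CPM in WT, 3.36-fold, 95% interval 2.90 to 3.90, higher in KO. Cd74, the invariant chain, stood at 589 CPM in KO and 230.2 CPM in WT, and H2-Ab1 at 155 CPM in KO and 52.7 CPM in WT and H2-Eb1 at 162 CPM in KO and 55.5 CPM in WT. These UMIs came from a minority of cells: H2-Aa was detected in 87 KO and 57 WT cells, and the 5 highest cells held 25.8% of its UMIs in KO and 62.3% in WT. In the other barcodes 4 of 5 measured were higher in KO too, H2-Aa at 217 CPM in KO and 58.1 CPM in WT. H2-Aa did not run the same way at each depth, at 319 CPM in KO and 39.5 CPM in WT in cells of at least 4000 and under 8000 UMIs, and at 44.3 CPM in KO and 47.8 CPM in WT in those under 4000. In the cells of at least 4000 and under 8000 UMIs Ccr6 had 76 UMIs in KO and 1 in WT, Cd4 had 65 in KO and 1 in WT, Il23r had 25 in KO and 0 in WT, Cxcr5 had 22 in KO and 0 in WT, and Ccr7 had 19 in KO and 0 in WT. Under a stricter gate (2 Gata3 and 3 receptor UMIs) 1 of 3 measured was higher, with a median of 0.47. Ncoa7 stood at 102 CPM in KO and 37.7 CPM in WT in Calca-low cells, at 35.3 CPM in KO and 28.1 CPM in WT without the same cells, and, among Calca-expressing cells, at 26.2 CPM in KO and 28.9 CPM in WT.

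The genes lowest in KO were mostly those of basophils, mast cells and granulocyte precursors. Of 10 basophil and mast cell genes 7 were measured and all 7 were lower, with a median log2 ratio of -1.71. Prss34, a basophil protease, stood at 572 CPM in KO and 2232 CPM in WT, Mcpt8 at 394 CPM in KO and 1381 CPM in WT and Cpa3 at 70.2 CPM in KO and 242 CPM in WT. For Prss34 the 5 highest cells held 93.6% of its UMIs in KO and 60.3% in WT, and for Mcpt8 90.4% of its UMIs in KO and 56.2% in WT. Without the cells above 10000 UMIs 3 of the list were measured and all 3 were lower. Without cells with 10 or more UMIs of another lineage, a choice made on these same genes, 2 of the list were measured, 1 was lower, and Prss34 stood at 44.6 CPM in KO and 101 CPM in WT. Ms4a2, the β chain of the IgE receptor, and Cd200r3 were among the 12 lowest genes, at 26.3 CPM in KO and 119 CPM in WT for Ms4a2 and 14.0 CPM in KO and 51.2 CPM in WT for Cd200r3.

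Elane, neutrophil elastase, had 0 UMIs in KO and 213 in WT, at least 53.6-fold lower in KO when the KO level is set at 3 UMIs. Of its WT UMIs 83.6% lay in 5 cells. Mpo, the myeloperoxidase gene, stood at 28.0 CPM in KO and 176 CPM in WT, and Ctsg at 46.3 CPM in KO and 159.7 CPM in WT. Apoe, Cd63 and Ifitm1 completed the 12 lowest genes with Id2, with Ifitm1 at 26.0 CPM in KO and 108 CPM in WT. Of the 12, Id2 and Prss34 kept their call in both recounts, Mcpt8 and Cpa3 kept it without the cells above 10000 UMIs only, and the other 8 lost it in both. Several of the 12 belong to the lists that chose the cells of other lineages, so that recount is not independent of them.

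Cycling genes were also lower in KO. Of 19 genes of the G2 and M phases 7 were measured and 6 were lower, with a median log2 ratio of -0.76. Mki67 stood at 96.5 CPM in KO and 288 CPM in WT and Top2a at 163 CPM in KO and 279 CPM in WT. For Mki67 the 5 highest cells held 50.0% of its UMIs in KO and 35.3% in WT. Without the cells above 10000 UMIs Mki67 stood at 23.6 CPM in KO and 74.2 CPM in WT and was called again, and 2 of the list were measured, both lower. By depth, Mki67 stood at 11.1 CPM in KO and 177 CPM in WT in cells under 4000 UMIs, and at 276 CPM in KO and 519 CPM in WT in cells of 8000 or more. In the latter, 68 cells in KO and 122 in WT, some genes of the list were nearly level between the libraries. Ccnb2 stood there at 81.2 CPM in KO and 82.6 CPM in WT, and Hmmr at 60.7 CPM in KO and 61.0 CPM in WT. Cenpf was lower in KO there, at 127 CPM in KO and 171 CPM in WT. The thinned shares of cells with 2 or more UMIs of these genes, given above, were lower in KO than in WT in Calca-low cells, in Calca-expressing cells, in the other barcodes and in the Cd79a-positive cells, where they were 21.6% in KO and 37.0% in WT. In Calca-expressing cells 4 of 4 measured genes of the list were lower in KO, where 4.1% of all genes were, and in the other barcodes 3 of 13, where 1.33% were. Of 9 measured S-phase genes 2 were lower in Calca-low cells, Tyms and Rrm1, and both lost their call without the cells above 10000 UMIs, where Tyms stood at 14.7 CPM in KO and 15.0 CPM in WT, and without the cells with UMIs of other lineages.

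Some genes of smaller lists were lower as well. Of 5 measured genes of the neuropeptide and lipid mediator list 3 were lower and 0 higher. They were Alox5, the 5-lipoxygenase of leukotriene synthesis, at 27.3 CPM in KO and 52.7 CPM in WT, Alox5ap, its activating protein, at 32.6 CPM in KO and 84.1 CPM in WT, and Ltb4r1, a leukotriene B4 receptor, at 104 CPM in KO and 167 CPM in WT. Ltb4r1 kept its call without deep cells and without cells with UMIs of other lineages, but lost it without the cells with a UMI of Ccr6, Il23r, Cxcr5 or Cd4, at 114 CPM in KO and 171 CPM in WT. Alox5 lost its call without the cells with UMIs of other lineages, and Alox5ap lost it there and without deep cells. Ramp1, a subunit of the CGRP receptor, stood at 279 CPM in KO and 241 CPM in WT and was not called. Of 10 measured genes of maturation and the cytoskeleton 2 were lower, Lgals1 at 103 CPM in KO and 218 CPM in WT and Vim at 150.5 CPM in KO and 245 CPM in WT, and Vim lost its call in both recounts. The median log2 ratio of that list was 0.000138, so the list as a whole was not lower. Without deep cells 3 of 9 measured were higher and 1 lower, with a median of 0.20. Without cells with UMIs of other lineages 0 of 9 were higher and 1 lower.

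Several programmes gave no call between KO and WT Calca-low cells. These were the genes of quiescence and egress, 0 of 8 measured, glycolysis, 0 of 11, heat shock, 0 of 8, and the E proteins, 0 of 3. Klf2, a regulator of lymphocyte egress, stood at 230.0 CPM in KO and 187 CPM in WT, Bcl2 at 476 CPM in KO and 438 CPM in WT and Pkm at 216 CPM in KO and 230.5 CPM in WT. Btg1, of the quiescence and egress list, was not called but was higher in KO at each depth. In cells of at least 4000 and under 8000 UMIs it stood at 1966 CPM in KO and 1516 CPM in WT. With 1 library per genotype, the absence of a call does not show that these levels were alike.

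Calca-low cells made up 11.2% (10.2 to 12.1) of the filtered KO barcodes and 15.5% (14.3 to 16.8) of the filtered WT ones. The ratio of 0.722 was not stable, since it came to 1.90 when barcodes with at least 500 genes were counted, and no direction is read from it. Over all listed barcodes the median was 4078 UMIs in KO and 936 UMIs in WT. Within the gate, Calca-low cells were 64.5% (61.0 to 67.9) in KO and 57.9% (54.6 to 61.2) in WT.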

How the data were processed

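The deposited matrices, 1 for KO and 1 for WT, give whole UMI counts that were not normalized. Per the submitters' processing notes, Cell Ranger 3.1.0, Seurat and the mm10 build were used; their settings are not stated in the sources used here. Counts were read with Python 3.11.15, numpy 2.4.6, scipy 1.17.1 and pandas 2.3.3. Barcodes were filtered and gated on counts as the report states, and counts were summed per library and set and given as CPM. Intervals are at the 95% level and cover counting error only, and a count of 0 was read against a limit of 3 UMIs. Log2 ratios used a pseudocount of 5 CPM, and folds are ratios of CPM without it. For shares of cells each cell was thinned to 1500 UMIs with a fixed seed. TMM factors came from edgeR 4.0.16 in R 4.3.3, which was used for no test. Figures were drawn with matplotlib 3.10.9. No doublet caller was run and no cells were clustered. Free RNA was gauged in cells with at least 3 UMIs of Cd79a and 0 of Gata3.

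The members, gene lists and comparisons were chosen with earlier results of these data known. The text names the 12 highest and 12 lowest genes past the rule of size in each comparison, the gate genes, Rora and Id2, and from any list no more than 6 genes, taken by the size of their ratios. Other names (Trbc1, Cd3e, Ncoa7 levels in other sets, Jun, Klf2, Pkm, Tcf12, Gfi1, Btg1, Ccr6, Il23r, Cxcr5, Cd4, Ccr7, Ccnb2, Hmmr, Cenpf and genes listed at 0) were picked after their values were seen. Ribosomal, immunoglobulin, T-cell receptor and Y-linked genes were left out of the ranks. Scripts were tested on simulated data. Alternatives covered the gene and mitochondrial limits, the gate, thinning, the pseudocount, the minimum level, scaling and 3 sets of cells left out. The last 3 were chosen after seeing the data.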

Additional observations from a re-analysis of the deposited data

How the results depend on the processing

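Each genotype had 1 library, so no replicate could be left out. No paired analysis was possible because each genotype had 1 library. The fall of Id2 in KO kept its direction and size in all 13 alternatives run, with log2 ratios of KO to WT from -2.11 to -1.76.

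The ratio of the KO to the WT share of Calca-low cells turned to 1.90 with at least 500 genes detected. Genes higher in KO numbered 314 with no minimum level and 133 in cells thinned to 1500 UMIs. Genes lower in KO numbered 143 with the gate set on barcodes thinned to 2000 UMIs, 38 without cells with UMIs of other lineages, 442 with no minimum, 132 with totals without mitochondrial and ribosomal genes, and 138 in thinned cells. Genes higher in Calca-low than in Calca-expressing cells numbered 65 with the thinned gate, 70 without cells above 10000 UMIs, 128 with no minimum and 70 with the reduced totals, and the lower ones 274 with no minimum. Against the other barcodes the higher genes numbered 148 with the thinned gate, 163 without cells with UMIs of other lineages, 169 without deep cells, 167 with no minimum and 57 in thinned cells. The lower ones numbered 190 with 2 Gata3 and 3 receptor UMIs, 284 with the thinned gate, 333 without cells with UMIs of other lineages, 333 without deep cells and 283 with no minimum. The cause of these shifts was not tested.

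Between KO and WT, H2-Ab1 came to -0.0231 and H2-Eb1 to -0.23 without cells with a UMI of Ccr6, Il23r, Cxcr5 or Cd4. The other single genes that turned were among those higher in Calca-low than in Calca-expressing cells, by the smaller log2 ratio of the 2 libraries. H2-Eb1 came to -0.20 under the stricter gate. With the thinned gate Mcpt8 came to -0.47, Cpa3 to -0.70 and Klrk1 to -0.61. Without cells with UMIs of other lineages, a choice made in part on these genes, Mcpt8 came to -0.44 and Cpa3 to -0.34. In thinned cells Cpa3 came to -0.0792. Leaving out every gated cell with 3 or more UMIs over the marker lists of other types, as first intended, kept 1 KO and 0 WT cells and gave no value.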
